A study of Mus musculus with 48 samples.

Results

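The genes examined were those of the proteasome, taken as every gene whose platform symbol starts with Psma, Psmb, Psmc, Psmd or Psme. This gave 44 of the 20738 genes named on the array, measured by 64 features, of which the brightest over all arrays stood for each gene. They were divided by symbol, with 16 genes of the 20S core (Psma1 to Psma8, Psmb1 to Psmb7 and Psmb11). Another 22 were of the regulatory particles or their assembly (Psmc1 to Psmc6, Psmd1 to Psmd14, Psme3 and Psme4) and 5 of the immunoproteasome (Psmb8, Psmb9, Psmb10, Psme1 and Psme2). The last gene, Psmc3ip, matched the symbol but is not a subunit: its product acts in meiotic recombination, and it was kept apart.

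The arrays held RNA of 2 kinds of cultured primary lung cell from C57Bl/6J mice, alveolar epithelial type II cells (AECII), which make surfactant, and pulmonary arterial smooth muscle cells (PASMC), which were grown to passage 1. Each kind was profiled as a control, labelled room air, and after 24 h with e-cigarette vapour extract (ECVE) at 15%, made from a liquid with 0 or with 18 mg/ml nicotine, on 8 arrays per group and 48 in all. Serum in the medium was 10% for AECII and 15% for PASMC, so cell type and culture differ together. The cells came from 8 mice, but the labels do not tie arrays to animals. The p-values therefore measure the spread between these arrays, which may be partly technical and partly between cultures. Some PASMC arrays of different conditions had like marker levels, given below, so cultures may recur across conditions.

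The proteasome degrades proteins tagged with ubiquitin. Its 20S core is a stack of rings of alpha and beta subunits, with the catalytic sites on the beta subunits Psmb5, Psmb6 and Psmb7. A 19S cap of ATPases (Psmc) and non-ATPase subunits (most Psmd genes) binds, unfolds and feeds in the substrate. Interferon induces alternative catalytic subunits: Psmb8 takes the place of Psmb5, Psmb9 that of Psmb6 and Psmb10 that of Psmb7. Together with the PA28 activator made of Psme1 and Psme2, they shape the peptides shown on class I molecules.

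The data below set 2 immune subunits beside a standard one. The 250 bases before the start of each gene are therefore shown 5′ to 3′ on the gene's strand, from RefSeq on build GRCm38.p6. Psmb8 lies at chr17:34197945-34198194 (plus strand), Psmb9 at chr17:34187331-34187580 (minus strand) and Psmb5 at chr14:54617996-54618245 (minus strand). Capitals mark every match, on either strand, to 1 of 5 searched motifs.
Psmb8: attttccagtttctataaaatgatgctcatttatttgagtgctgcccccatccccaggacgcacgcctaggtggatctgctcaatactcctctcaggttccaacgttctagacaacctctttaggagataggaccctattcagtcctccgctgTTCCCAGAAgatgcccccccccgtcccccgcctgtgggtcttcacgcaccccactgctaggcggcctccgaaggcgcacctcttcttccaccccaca
Psmb9: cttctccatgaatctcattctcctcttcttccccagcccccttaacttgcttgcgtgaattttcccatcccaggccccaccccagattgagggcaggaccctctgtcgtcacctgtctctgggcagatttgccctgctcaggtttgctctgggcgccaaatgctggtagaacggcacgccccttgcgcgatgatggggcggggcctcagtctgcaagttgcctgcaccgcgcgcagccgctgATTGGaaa
Psmb5: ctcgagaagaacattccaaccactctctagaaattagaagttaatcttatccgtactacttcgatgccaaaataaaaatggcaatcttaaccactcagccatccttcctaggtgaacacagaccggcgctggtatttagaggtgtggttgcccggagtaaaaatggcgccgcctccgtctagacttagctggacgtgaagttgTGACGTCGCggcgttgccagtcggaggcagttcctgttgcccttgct
The capitals in Psmb8, 97 to 89 bases before the start, match the gamma-activated site TTCNNNGAA, an element of interferon-responsive promoters. Those in Psmb9, 8 to 4 bases before the start, are the reverse complement of CCAAT. Those in Psmb5, 47 to 39 bases before its start, match the antioxidant response element TGACNNNGC.

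Promoters of 37 of the 44 genes were in the RefSeq table and were searched for the same motifs. A gene counted if any of its listed promoters matched, whereas the share of all promoters counts each distinct sequence once. The counts and shares are thus not of the same unit. The gamma-activated site TTCNNNGAA was present in 1 of the 37, Psmb8, and in 7.04% of all 32536 mouse promoters of that length. The interferon-stimulated response element, searched by its core GAAANNGAA, was present in Psmb3, Psmd4 and Psmd9, in none of the 5 immunoproteasome genes, and in 7.15% of all promoters. The antioxidant element TGACNNNGC was present in Psmb5, Psmb6, Psmc6, Psmd9 and Psmd12 and in 10.2% of all promoters. The kappaB motif GGGANTTCC was found in 0 of the 37 against 1.44% of all, and CCAAT in 15 of the 37 against 33.8% of all. A match describes letters in this window and is no measured site of binding.

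The deposited values are log2 signals with the same distribution on every array (median 2.97 to 2.98, highest 15.89). Of the 44 genes, 42 passed the minimum mean level of 2.73 on the log2 scale. Psma8, a testis subunit, and Psmb11, the thymus subunit, did not, with control means of 2.12 and 2.21 in AECII and of 2.09 and 2.08 in PASMC. The 10 type II cell markers averaged 8.79 to 9.52 on the AECII arrays and 4.71 to 7.22 on the PASMC arrays. They did not all go one way at control. The surfactant genes Sftpa1, Sftpb, Sftpc and Sftpd, with Nkx2-1, Napsa and Abca3, were higher in AECII, by 1.22 (Abca3) to 8.74 (Sftpd) on the log2 scale. Lamp3 was higher by only 0.31, Etv5 was lower (-2.26), and Slc34a2 fell below the minimum level and was not tested. The 10 smooth muscle markers averaged 7.34 to 8.34 on the AECII arrays and 9.74 to 11.59 on the PASMC arrays. Sftpc, the surfactant protein C gene that defines type II cells, exceeded 6 on 3 control, 4 nicotine-free and 4 nicotine PASMC arrays, and the 15 macrophage and leukocyte markers averaged 5.91 to 7.92 in AECII and 4.58 to 8.43 in PASMC. The 8 fibroblast markers averaged 6.77 to 7.85 in AECII and 9.33 to 12.15 in PASMC, so the contrast of cell types carries this difference too. The 8 endothelial markers averaged 3.90 to 5.14 in AECII and 3.31 to 6.95 in PASMC. Markers of other cell types were thus measured in both kinds of culture, and their part in the results was not tested beyond the values given below. In such bulk RNA, fewer cells of a type and less RNA per cell cannot be told apart.

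Most proteasome genes that differed between the cell types were higher in AECII, by small amounts. In the control cells 26 of the 42 passed the test, 25 higher in AECII and 1 lower (limma, adjusted p under 0.05 over 14775 genes), against 59.2% of all genes, 27.9% higher and 31.3% lower. The share that differed was therefore near the background, while the direction was nearly all one way in the proteasome genes and split in the rest. The median log2 difference, AECII minus PASMC, was 0.22 for the 42 and -0.04 for all genes. Among bright genes, with a mean log2 level above 10, 31 proteasome genes had 20 higher and 1 lower, against 33.4% and 35.1% of all 2450 such genes.

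The same contrast was taken on other arrays under each extract. Arrays of different conditions may share animals or cultures, so the 3 contrasts are not to be read as independent repeats. With the nicotine-free extract 22 of the 42 passed, 21 higher in AECII and 1 lower, against 58.7% of all genes, 27.9% higher and 30.9% lower. With the nicotine extract 23 passed, 22 higher and 1 lower, against 58.3%, 28% and 30.3%. The median log2 differences were 0.22 and 0.23 for the proteasome genes and -0.04 and -0.03 for all genes. In all 3 conditions 19 of the 42 were called higher in AECII (45.2%, against 23.5% of all genes): Psma1, Psma2, Psma4, Psma5, Psma7, Psmb3, Psmb4, Psmb5, Psmb8, Psmc1, Psmc2, Psmc3, Psmd1, Psmd2, Psmd3, Psmd11, Psmd13, Psme1 and Psme2. Psmb1 alone was called lower in all 3 (2.38% of the 42, against 25.9% of all genes).

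**Figure D1:**
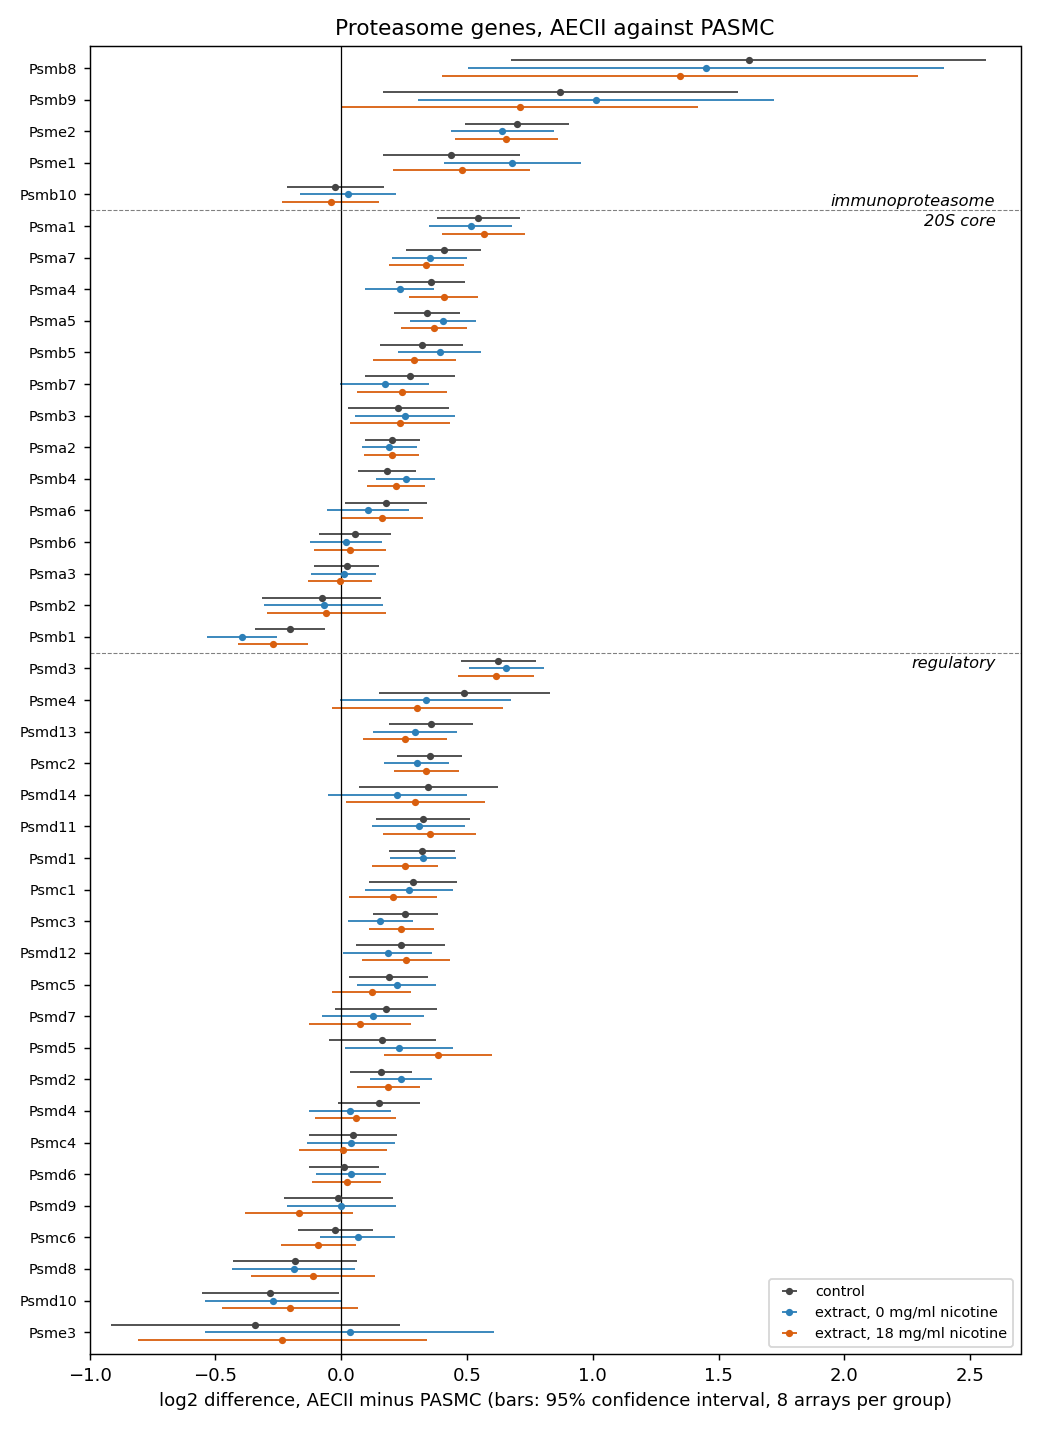
AECII minus PASMC log2 difference of 41 tested proteasome genes (Psmc3ip left out), grouped by class, at control and under each extract, with bars for the 95% intervals from limma (8 arrays per group). Most points lie right of 0, Psmb1 lies left of it in all 3 conditions, and the intervals of Psmb8 and Psmb9 are the widest.

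The alpha subunits form the outer rings of the core and its gate. Of the 7 tested, 5 were higher in AECII control cells (Psma1, Psma2, Psma4, Psma5 and Psma7), against 27.9% of all genes, and Psma3 and Psma6 had log2 differences of 0.02 and 0.18 that did not pass. Psma1 had log2 levels of 11.76 to 12.17 (median 11.88) on the 8 AECII control arrays and of 11.21 to 11.62 (median 11.36) on the 8 PASMC ones, and the groups did not overlap. Its log2 difference was 0.54 (SE 0.082, adjusted p = 1.71e-07), with 0.51 and 0.57 under the nicotine-free and nicotine extracts. Psma7, also without overlap, spanned log2 levels of 13.12 to 13.31 in AECII and 12.48 to 12.98 in PASMC.

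Of the 7 standard beta subunits tested, 4 were higher in AECII control cells (Psmb3, Psmb4, Psmb5 and Psmb7) and 1, Psmb1, was lower, against 27.9% and 31.3% of all genes. Psmb5, which carries the chymotrypsin-like site, had log2 levels of 13.73 to 14.09 (median 13.90) in AECII and 13.29 to 13.78 (median 13.59) in PASMC. The ranges overlapped at their edges, and the log2 difference was 0.32 (SE 0.082, adjusted p = 0.000795), with 0.39 and 0.29 under the nicotine-free and nicotine extracts, both called. Against only the PASMC arrays with Sftpc at or below 6, the nicotine-extract value was 0.24 and missed the threshold (adjusted p = 0.0569). A second, dimmer feature of Psmb5 gave a smaller log2 difference of 0.16 at control. Psmb7, which carries the trypsin-like site, had log2 levels of 10.36 to 10.76 (median 10.56) in AECII and 9.93 to 10.55 (median 10.28) in PASMC, and a difference of 0.27 (SE 0.088, adjusted p = 0.00689). With the nicotine-free extract Psmb7 differed by 0.17 and did not pass (adjusted p = 0.0913), and with the nicotine extract by 0.24 (adjusted p = 0.0171), which became 0.20 against only the PASMC arrays with low Sftpc (adjusted p = 0.165). Psmb6, which carries the caspase-like site, differed by 0.05 on the log2 scale (SE 0.071, adjusted p = 0.533), from levels of 13.09 to 13.38 and of 12.96 to 13.41.

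Psmb1, a non-catalytic subunit of the beta ring, went the other way. Its log2 levels were 11.47 to 11.87 (median 11.65) in AECII control cells and 11.59 to 11.98 (median 11.89) in PASMC, with most of the ranges shared. The log2 difference was -0.20 (SE 0.069, adjusted p = 0.0103) at control, -0.40 with the nicotine-free extract and -0.27 with the nicotine extract. Against only the PASMC arrays with Sftpc at or below 6, the control difference was -0.17 and no longer passed (adjusted p = 0.0740).

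For the 19S cap and its assembly, 4 of the 6 ATPases (Psmc1, Psmc2, Psmc3 and Psmc5) and 7 of the 14 Psmd genes (Psmd1, Psmd2, Psmd3, Psmd11, Psmd12, Psmd13 and Psmd14) were higher in AECII control cells, against 27.9% of all genes. None was lower, against 31.3%. Psmd3, a scaffold subunit of the lid, had log2 levels of 13.10 to 13.32 (median 13.23) on the AECII arrays and 12.43 to 12.77 (median 12.60) on the PASMC arrays. The groups lay wholly apart, and the log2 difference was 0.62 (SE 0.075, adjusted p = 7.07e-10), 0.66 and 0.61 under the 2 extracts. Psmc2, an ATPase of the ring, also did not overlap, with log2 levels of 12.45 to 12.66 in AECII and 11.90 to 12.31 in PASMC.

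In all, 7 of the 42 (16.7%) had every AECII control array above every PASMC control array, namely Psma1, Psma5, Psma7, Psmc2, Psmd3, Psmd13 and Psme2, against 13.3% of all genes. None had every AECII array below, against 14.8% of all genes. The non-overlap count in the upward direction is thus near the background.

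The remaining activators differed from each other. Psme4, which encodes the PA200 activator, was 0.49 higher in AECII control cells on the log2 scale (SE 0.17, adjusted p = 0.0117), with 0.34 and 0.30 under the extracts, which did not pass. Psme3, the nuclear PA28 gamma activator, had a log2 difference of -0.34 (SE 0.285) that did not pass, over log2 levels of 5.43 to 7.51 in AECII and 6.41 to 8.13 in PASMC. Psmd10, a chaperone of cap assembly, was read by 2 features that disagreed in sign, with log2 differences of -0.28 and 0.20.

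The immunoproteasome genes were higher in AECII control cells for 4 of 5 (median log2 difference 0.70), against 27.9% of all genes (median -0.04), and Psmb8, Psmb9 and Psme2 had the largest differences of the 42 there. Psmb8, the interferon-induced chymotrypsin-like subunit, had log2 levels of 6.59 to 7.71 (median 7.37) on the AECII control arrays and of 3.16 to 7.13 (median 6.11) on the PASMC control arrays. AECII arrays lay close together, whereas the PASMC arrays ran from well below them into their range. The log2 difference was 1.62 (SE 0.47, adjusted p = 0.00278), a 3.07-fold difference, with 1.45 (adjusted p = 0.00721) and 1.35 (adjusted p = 0.0124) under the nicotine-free and nicotine extracts. Without the lowest nicotine-extract PASMC array, replicate 5, the last became 0.98 and missed the threshold (adjusted p = 0.0537).

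Psmb9, the immune counterpart of Psmb6, had log2 levels of 4.98 to 5.95 (median 5.45) in AECII control cells and 2.74 to 5.39 (median 4.89) in PASMC. Its log2 difference was 0.87 (SE 0.35, adjusted p = 0.0302) at control, 1.01 (adjusted p = 0.0118) with the nicotine-free extract and 0.71 (adjusted p = 0.0794) with the nicotine extract. Single arrays decided the first and second of these calls. Without PASMC control replicate 2 the control difference was 0.61 (adjusted p = 0.115), without PASMC control replicate 8 it was 0.77 (adjusted p = 0.0649), and without AECII control replicate 5 it was 0.80 (adjusted p = 0.0571). Without PASMC replicate 5 the nicotine-free difference was 0.66 (adjusted p = 0.0583).

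Psmb10, the immune counterpart of Psmb7, behaved otherwise. Its control log2 levels were 10.87 to 11.28 (median 11.04) in AECII and 10.82 to 11.28 (median 11.09) in PASMC, and the ranges nearly coincided. The log2 difference was -0.02 (SE 0.095, adjusted p = 0.853, 95% interval -0.21 to 0.17), and 0.03 and -0.04 under the extracts. So of the 3 immune catalytic genes, those of the chymotrypsin-like and caspase-like positions were higher in AECII control cells, and that of the trypsin-like position was not called.

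The PA28 genes were steadier across arrays. Psme2, its beta subunit, had log2 levels of 12.26 to 12.96 (median 12.65) in AECII control cells and 11.69 to 12.11 (median 11.98) in PASMC, with no overlap. Its log2 difference was 0.70 (SE 0.10, adjusted p = 8.67e-08), with 0.64 and 0.66 under the extracts. A second feature gave 0.56 and another, named without an accession, 2.17. Psme1, the alpha subunit, had log2 levels of 10.20 to 10.73 (median 10.60) in AECII and 9.64 to 10.62 (median 10.19) in PASMC. Its log2 difference was 0.44 (SE 0.14, adjusted p = 0.00488), 0.68 and 0.48 under the extracts, and its 10 features agreed at control, from 0.44 to 0.59. Against only the PASMC arrays with Sftpc at or below 6 the control value was 0.36 and missed the threshold (adjusted p = 0.0514), and with the nicotine extract it was 0.38 (adjusted p = 0.0590).

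**Figure D2:**
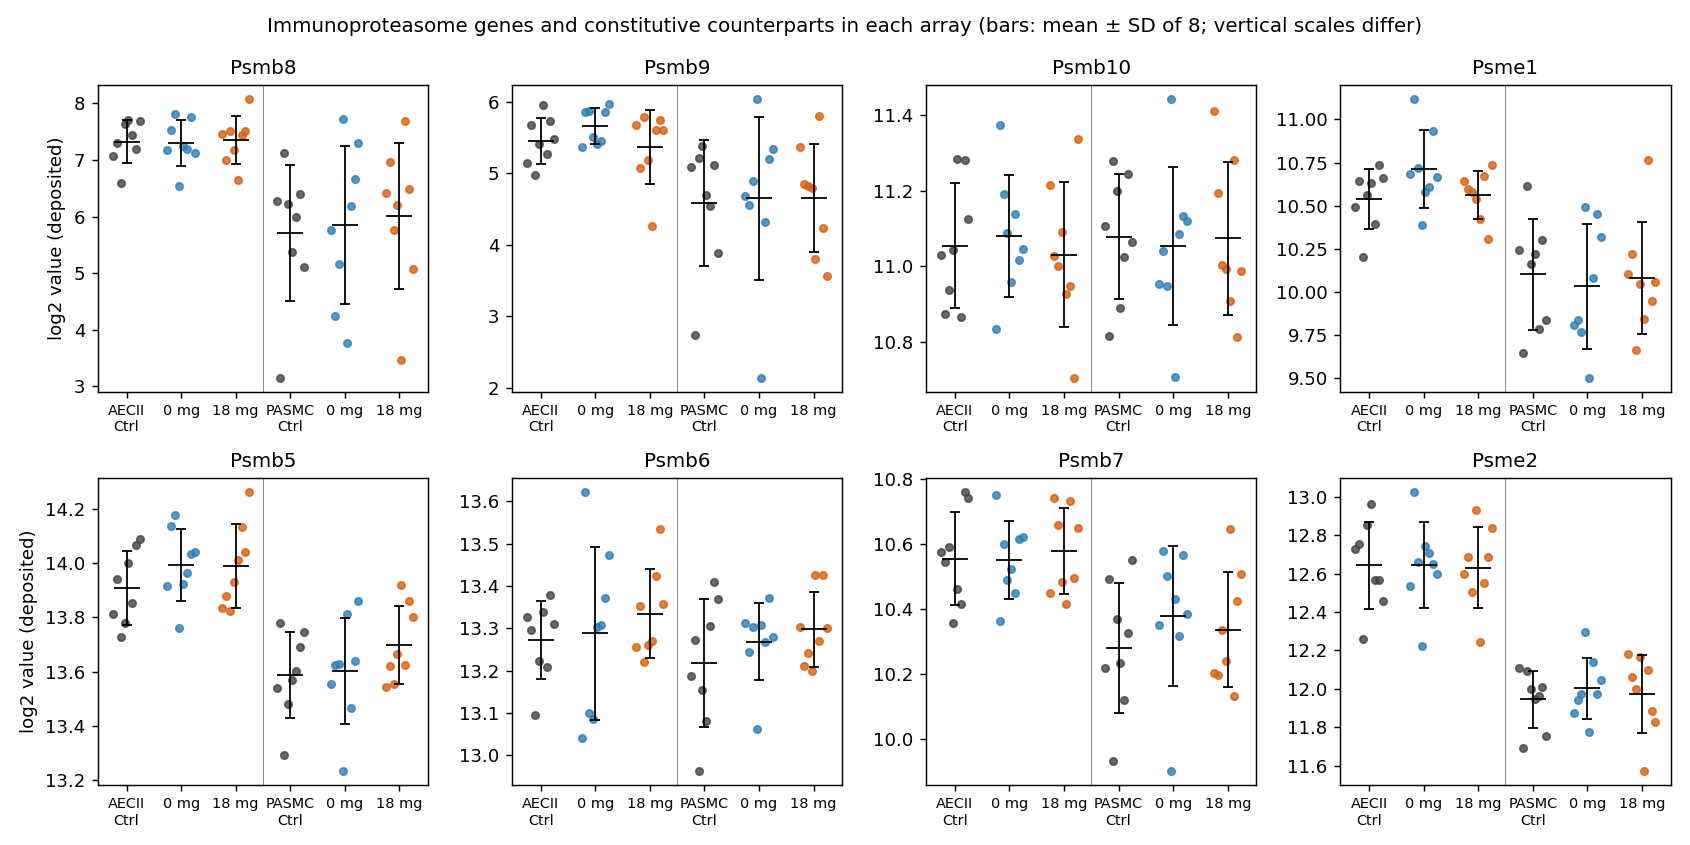
Log2 level of the 5 immunoproteasome genes and of Psmb5, Psmb6 and Psmb7 on each of the 48 arrays by group, with bars for the group mean and SD and a vertical scale of its own for each gene. The PASMC points of Psmb8 run from 3.16 to 7.72, while those of AECII lie between 6.54 and 8.08.

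The low Psmb8 levels in PASMC came with other features of the same arrays. The lowest array of each group, replicate 2 at control (3.16), replicate 5 with the nicotine-free extract (3.76) and replicate 5 with the nicotine extract (3.46), were the 3 PASMC arrays whose 8 fibroblast markers averaged lowest, at 9.33, 9.67 and 9.46, against at least 10.91 on the other 21. Irf1, a transcription factor that drives interferon-responsive genes, was at 7.63, 7.69 and 7.43 on them, the lowest of each group. Without these 3 arrays the Psmb8 log2 differences were 1.26, 1.15 and 0.98 at control and under the nicotine-free and nicotine extracts, and all passed (adjusted p = 0.00214, 0.00470 and 0.0152). Psmb9 then gave 0.61, 0.66 and 0.59, and all passed too (adjusted p = 0.0364, 0.0242 and 0.0434). The arrays left out were the lowest of their groups in Psmb8 and were chosen after seeing the data. Leaving them out also narrows the spread, so these passes are no independent check of the differences.

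Psmb8 was set against 36 other measures within each group of 8 arrays, 216 relations in all, with exact permutation p-values over all pairings and Benjamini-Hochberg adjustment. In PASMC it followed Irf1 in each group, with Pearson's r of 0.961 at control (exact p = 0.000347, adjusted p = 0.0250), 0.885 with the nicotine-free extract (exact p = 0.00161, adjusted p = 0.0375) and 0.947 with the nicotine extract (exact p = 0.000843, adjusted p = 0.0304). In each group, the array highest in both genes was also highest in fibroblast markers, which averaged 12.12, 12.15 and 12.15. The same cultures may thus recur across conditions, which was not tested. Relations of Psmb8 in different groups are therefore not to be read as independent repeats, although the adjustment counted each as a separate test. Without the 2 arrays farthest from the median of Psmb8, r was 0.865, 0.778 and 0.759. Spearman's rho was 0.857, 0.952 and 0.881, with exact p of 0.0107, 0.00114 and 0.00724, none of which passed after adjustment (adjusted p = 0.105, 0.0821 and 0.0978). In AECII, where Psmb8 varied little, r with Irf1 was 0.413, 0.589 and 0.444 (adjusted exact p = 0.538, 0.345 and 0.522), rho was 0.429, 0.786 and 0.299 (adjusted exact p = 0.567, 0.163 and 0.697), and r without the 2 farthest arrays was -0.329, 0.538 and -0.447.

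Other immunoproteasome genes moved with Psmb8 in PASMC to differing degrees. Pearson's r with Psmb9 was 0.944, 0.813 and 0.792 at control, nicotine-free and nicotine extract (adjusted exact p = 0.0375, 0.0471 and 0.0928), and Spearman's rho 0.833, 0.833 and 0.762 (adjusted exact p = 0.128, 0.128 and 0.194). With Psme2, r was 0.903, 0.784 and 0.826 (adjusted exact p = 0.0304, 0.102 and 0.0895) and rho 0.929, 0.786 and 0.571 (adjusted exact p = 0.0964, 0.163 and 0.419). Psmb10, whose mean was not called different between the cell types, had r of 0.866, 0.843 and 0.541 (adjusted exact p = 0.0375, 0.0517 and 0.385) and rho of 0.905, 0.905 and 0.5 (adjusted exact p = 0.0978, 0.0978 and 0.476). Without the 2 farthest arrays the 3 values of r were 0.852, 0.601 and 0.649 for Psmb9, 0.843, 0.432 and 0.535 for Psme2, and 0.705, 0.629 and 0.321 for Psmb10.

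The standard subunit that Psmb8 replaces ran the opposite way without passing. Pearson's r of Psmb8 with Psmb5 in PASMC was -0.758, -0.421 and -0.635 (adjusted exact p = 0.141, 0.538 and 0.257), and rho -0.714, -0.238 and -0.381 (adjusted exact p = 0.230, 0.748 and 0.593). Without the 2 farthest arrays r was -0.448, 0.428 and -0.253, so the sign at the nicotine-free extract rested on those arrays. With the fibroblast marker mean, r was 0.882, 0.761 and 0.832 (adjusted exact p = 0.0928, 0.0810 and 0.104) and rho 0.714, 0.786 and 0.452 (adjusted exact p = 0.230, 0.163 and 0.535). Without the 2 farthest arrays it was 0.083, 0.370 and -0.129, so this relation too rested on them. With the smooth muscle marker mean, r was -0.624, -0.637 and -0.603 (adjusted exact p = 0.279, 0.267 and 0.296), rho -0.690, -0.595 and -0.571 (adjusted exact p = 0.242, 0.376 and 0.419), and r without the 2 farthest arrays -0.081, -0.189 and 0.051. With the macrophage and leukocyte marker mean, r was 0.089, 0.056 and 0.032 (adjusted exact p = 0.927, 0.935 and 0.968) and rho -0.238, 0.024 and -0.167 (adjusted exact p = 0.748, 0.986 and 0.817).

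**Figure D3:**
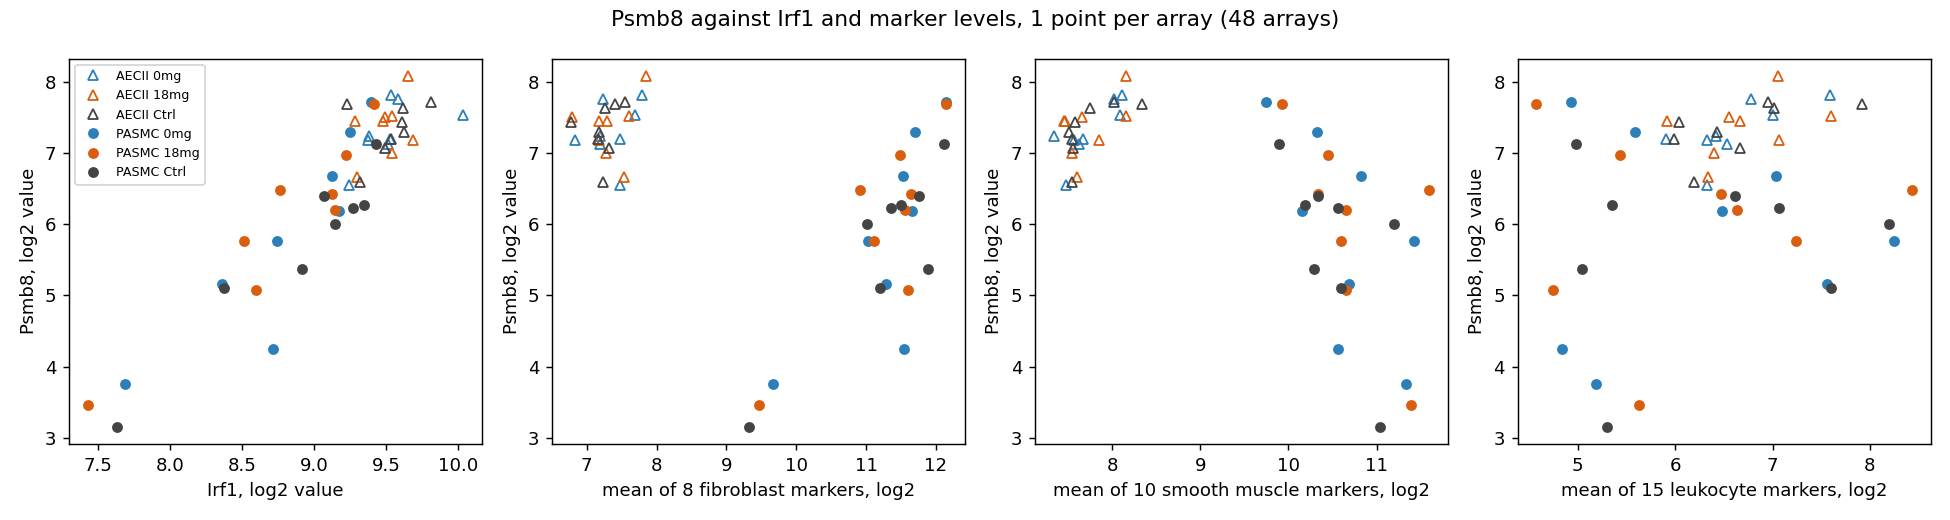
Psmb8 log2 level (vertical axis) on each of the 48 arrays against the log2 level of Irf1 and the mean log2 level of the fibroblast, smooth muscle and leukocyte markers (horizontal axes), with symbols for cell type and colours for condition. In PASMC Psmb8 and Irf1 rise together, and the lowest point of each group, at 3.16, 3.76 and 3.46 for Psmb8, stands apart on the Irf1 and fibroblast axes.

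Genes that work around the proteasome were counted in the same control comparison, where 27.9% of all genes were higher in AECII and 31.3% lower. Of 16 assembly and accessory genes, 7 were higher in AECII and 2 lower (median log2 difference 0.14): Uchl5, a deubiquitinase of the cap, was 0.81 higher, the assembly chaperone Psmg3 0.64, Zfand5, which activates the 26S particle, 0.50 and the ubiquitin receptor Adrm1 0.34, while Akirin2, which carries proteasomes into the nucleus, and Sem1, a small subunit of the lid, were lower (-0.25 and -0.12). Of 11 genes that control proteasome transcription, 2 were higher (Vcp 0.27, Syvn1 0.19) and 2 lower (Maff -1.46, Nfe2l1 -0.61), with a median of 0.11. Nfe2l1 encodes NRF1, the factor that raises proteasome genes when the proteasome is impaired, and Maff a small partner of such factors. Of the 6 ubiquitin and shuttle genes tested, of 12 listed, 4 were higher (Ubqln4 0.72, Rad23b 0.69, Ubqln1 0.44, Ubqln2 0.38) and the autophagy receptor Sqstm1 was lower (-0.40), with a median of 0.41.

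The immunoproteasome serves class I presentation. Of 23 genes of interferon control and class I presentation, 7 were higher in AECII and 8 lower (median log2 difference -0.26), near the 27.9% and 31.3% of all genes. The class I heavy chains H2-K1 and H2-D1 were 2.68 and 1.73 higher on the log2 scale, the loading factor Tapbp 2.15 and the trimming peptidase Erap1 1.33. The light chain B2m was lower (-1.35), as were the interferon receptor Ifnar2 (-1.65) and the signalling genes Stat2 (-1.07) and Jak1 (-1.01). The peptide transporter Tap1, which neighbours Psmb9 in the mouse class II region, was lower as well (-0.84, adjusted p = 0.00135), opposite to Psmb9, and Irf1 was 0.63 higher (adjusted p = 0.0122). Tap1 and Erap1 were dim, with mean log2 levels at control of 4.10 and 4.58 in AECII and 4.94 and 3.25 in PASMC, not far above the minimum of 2.73.

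The extracts were compared with control within each cell type, both comparisons sharing the control arrays, and then with each other. No proteasome gene passed in any of these 6 comparisons, and none reached an unadjusted p of 0.05 in any of them (limma). Over all genes the share called was 0% in AECII with either extract and between them, 0% in PASMC with the nicotine-free extract and between the extracts, and 0.0275% in PASMC with the nicotine extract, where 4 genes were called, none of them a proteasome gene. At an unadjusted p under 0.05 there were 282 to 589 genes per comparison, so the absence of calls among the 42 says little about them in particular.

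In AECII the log2 differences of the 42 ran from -0.13 (Psmd14) to 0.29 (Psme3) with the nicotine-free extract and from -0.17 (Psmd9) to 0.15 (Psmc3ip) with the nicotine extract, with a median SE of 0.079. Against control, 17 of the 42 were above 0 with the nicotine-free extract and 30 with the nicotine extract, against 53.0% and 54.8% of all genes. With the nicotine extract all 14 core genes were above 0, by 0.004 to 0.10 on the log2 scale (median 0.05, against 0.01 for all genes). These genes share the same arrays, so the count is not one of independent results. Their mean per array was 12.16 (SD 0.072) at control and 12.21 (SD 0.088) with the nicotine extract. The smallest p-values were those of Psme1 with the nicotine-free extract (0.17, 95% interval -0.02 to 0.37), of Psmd9, Psmd5 and Psma1 with the nicotine extract (-0.17, 0.11 and 0.10) and of Psma4 between the extracts (0.14, 95% interval -0.01 to 0.28). A second, dimmer feature of Psmd9 went the other way, with AECII means of 6.21 at control and 6.42 with the nicotine extract.

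For the standard catalytic genes in AECII the 95% intervals were narrow. The Psmb5 log2 difference lay between -0.08 and 0.25 with the nicotine-free extract and between -0.08 and 0.24 with the nicotine extract. Psmb8, at log2 levels of 6.54 to 7.81 (median 7.22) with the nicotine-free extract and 6.66 to 8.08 (median 7.45) with the nicotine extract, overlapped its control range almost entirely. Its log2 differences were -0.03 (95% interval -0.43 to 0.38) and 0.03 (-0.37 to 0.43). Psmb9 gave 0.21 (-0.17 to 0.59) and -0.09 (-0.47 to 0.29), and Psme2 -0.0004 (-0.23 to 0.23) and -0.01 (-0.25 to 0.22).

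In PASMC the 42 ran from -0.13 (Psmd9) to 0.14 (Psmb8) with the nicotine-free extract and from -0.23 (Psme3) to 0.30 (Psmb8) with the nicotine extract, with a median SE of 0.094. With the nicotine-free extract 25 of the 42 were above 0, among them 11 of 14 core genes and 4 of the 6 ATPases, against 51.3% of all genes. With the nicotine extract 32 of the 42 were above 0, among them 13 of 14 core genes and all 6 ATPases, against 51.8% of all genes, with a median of 0.06 against 0.01. Here too the genes share arrays. The core genes' mean per array was 11.96 (SD 0.11) at control and 12.02 (SD 0.11) with the nicotine extract. The smallest p-values there were those of Psmc3ip (0.27, 95% interval -0.06 to 0.60), of Psmd4, a ubiquitin receptor of the cap (0.12, -0.06 to 0.30), and of Psmc1 (0.13, -0.07 to 0.34). With the nicotine-free extract they were those of Psmd2 (-0.10), Psmd6 (-0.11) and Psmd9 (-0.13), and between the extracts those of Psmc3ip (0.25), Psma3 (0.07) and Psmc5 (0.09).

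The fit did not pair arrays, and within it the spread of the immune subunits in PASMC limits what could be seen. Some marker levels recurred in each condition under different replicate numbers. Endothelial markers averaged 6.95, 6.57 and 6.77 on control replicate 8, nicotine-free replicate 3 and nicotine replicate 3. Psmb8 was 5.11, 5.17 and 5.77 there, and 3.16, 3.76 and 3.46 on the 3 arrays low in fibroblast markers. The intervals may thus hold spread between cultures, which was not tested. Psmb8 had log2 levels of 3.76 to 7.72 (median 5.97) with the nicotine-free extract and 3.46 to 7.69 (median 6.31) with the nicotine extract, both covering most of the control range. The 95% intervals of its log2 differences ran from -1.14 to 1.43 and from -0.98 to 1.58, so that an increase of 1 log2 unit or more lay within both. For Psmb5 they ran from -0.17 to 0.20 and from -0.08 to 0.30, and for Psmb10 from -0.23 to 0.19 and from -0.21 to 0.21.

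Whether the cell types responded differently was tested as the response of AECII minus that of PASMC. None of the 42 passed for either extract, against 0% of all genes for both. None reached an unadjusted p of 0.05 (limma), against 2.66% of all genes for the nicotine-free and 2.59% for the nicotine extract. The absence thus says little about the 42 in particular. The nearest were Psmb1 (-0.19, 95% interval -0.39 to 0.0046), Psma4 (-0.12) and Psme1 (0.24) for the nicotine-free extract, and Psmd5 (0.22), Psmd9 (-0.16) and Psmd13 (-0.10) for the nicotine extract. The second feature of Psmd9 differed in the other direction. Its mean went from 6.21 at control to 6.42 with the nicotine extract in AECII, and from 6.45 to 6.29 in PASMC. The 95% interval of Psmb8 ran from -1.51 to 1.17 and from -1.61 to 1.07.

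**Figure D4:**
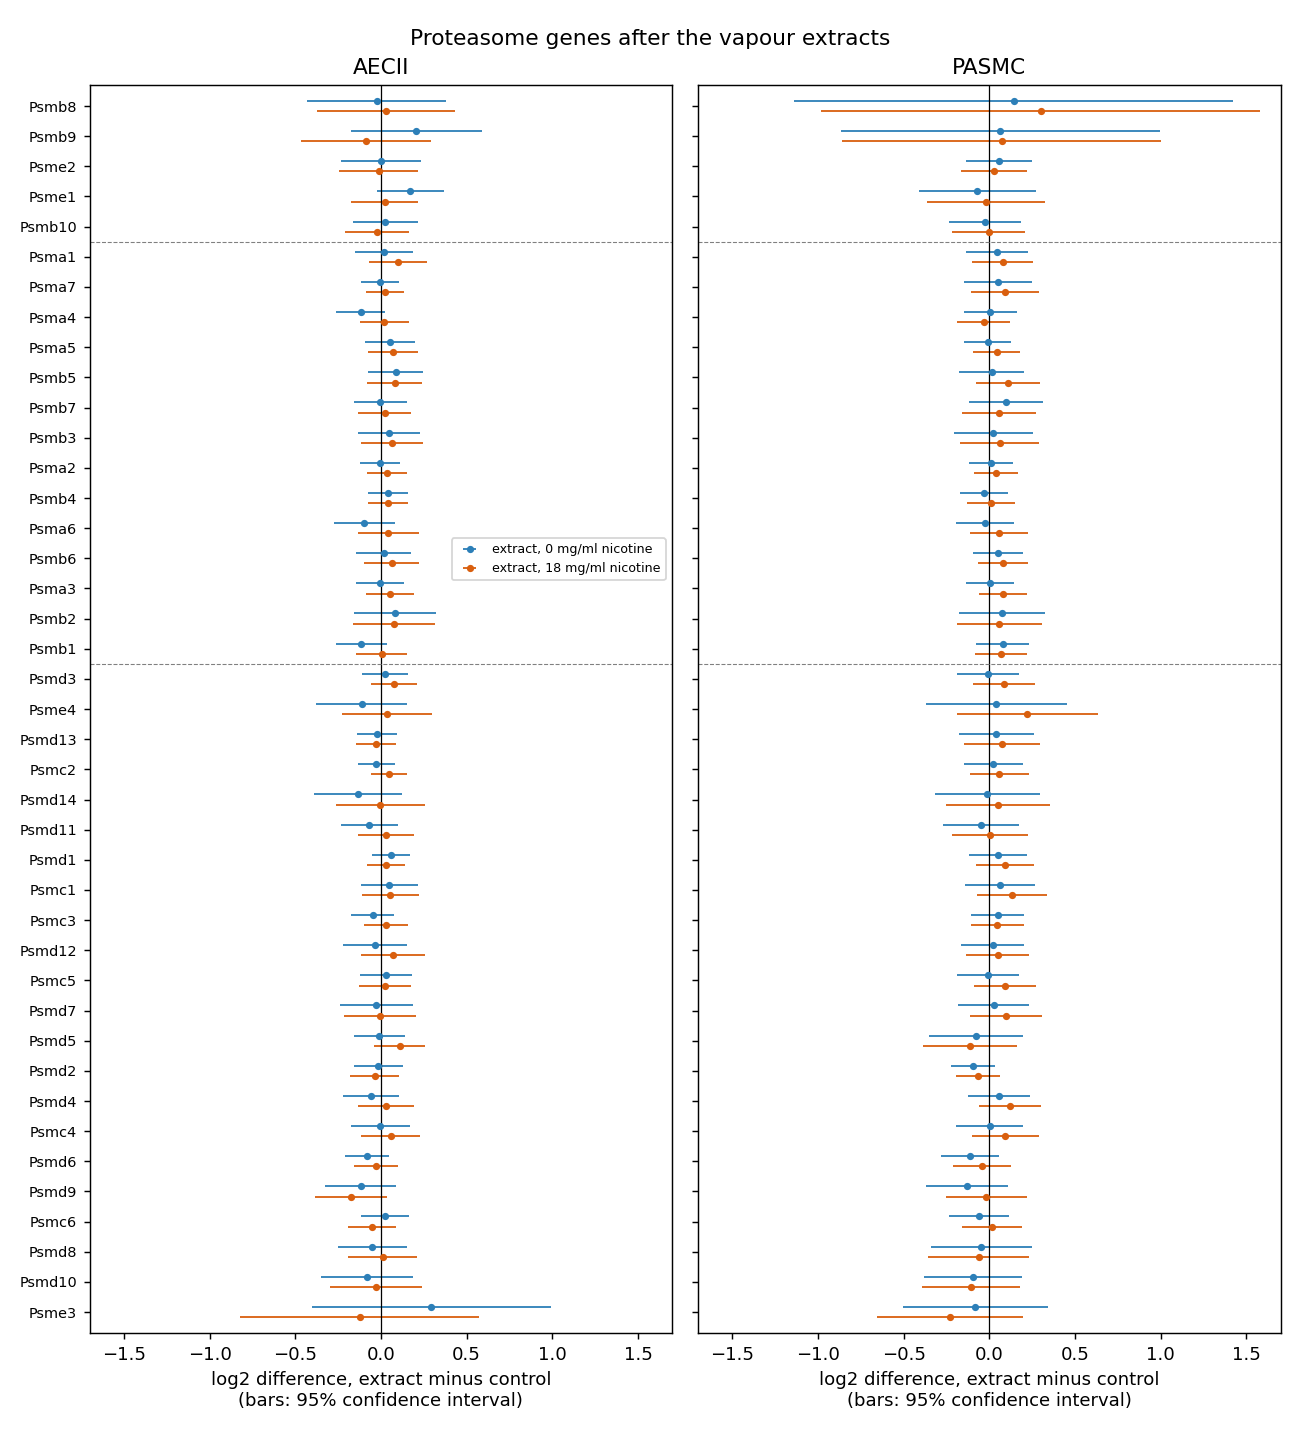
Log2 difference of each extract from control for 41 tested proteasome genes (Psmc3ip left out) in AECII and PASMC, with 95% intervals from limma. All intervals include 0, and those of Psmb8 and Psmb9 in PASMC are the widest.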

How the data were processed

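Groups were taken from the labels. The matrix deposited by the authors gives 1 log2 value per feature and array, and the arrays' equal quantiles show that the values had been quantile normalised. The submitters' processing notes name limma, with no version; no step is given in the sources used here. Among 62976 features, 31465 had 1 gene symbol, 0 had several and 31511 had none; 28 values were missing. Names were updated to RefSeq GRCm38.p6 symbols by accession for 29050 features, which with synonyms changed 3282 names; proteasome genes were chosen on the platform symbol. The feature with the highest mean over all 48 arrays stood for a gene.

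Models were fitted with limma 3.58.1 in R 4.3.3 (lmFit, eBayes) on the log2 values, with 1 coefficient per group, over 48 arrays for cell types and responses and over the 24 of a cell type for extracts. Genes with a mean above 2.73, the 30th percentile of named features, were tested: 14775, 14477 in AECII and 14545 in PASMC. Tests were two-sided, adjusted by Benjamini and Hochberg within a comparison, and called at an adjusted p under 0.05. The code was tested on simulated data. The 8 arrays per group limit the precision.

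The members and gene lists were chosen with earlier results of these data known. Named genes were the immunoproteasome genes with Psmb5, Psmb6 and Psmb7, the 5 called members per direction with the largest difference between cell types, in comparisons without calls the 3 members of smallest p, and up to 4 called genes per direction of each other list. Others named (Psma7, Psmc2, Psme3, Psme4, Psmd10, Tap1, Irf1, and members that complete a count) were chosen after their values were seen. Alternatives are given in the closing section.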

Additional observations from a re-analysis of the deposited data

Results flagged for a closer look

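Among the 23 named proteasome genes in 6 groups of 8 arrays, 138 sets of 8 values were examined for an array far from the other 7 by Dixon's test, and 13 had one; chance alone gives about 1 in 20. Values are log2 levels. With PASMC and the nicotine-free extract, replicate 5 was high for Psma1 (11.68, next 11.47) and low for Psmb9 (2.146, next 4.323) and Psmc3ip (5.469, next 6.249), and replicate 4 was low for Psmb6 (13.06, next 13.24) and Psmb7 (9.901, next 10.32). In PASMC control cells, replicate 8 was high for Psma4 (11.14, next 10.91) and Psma6 (11.36, next 11.1), and replicate 3 was low for Psmb1 (11.59, next 11.8). PASMC with the nicotine extract had a low Psmd9 in replicate 6 (7.615, next 7.979). In AECII, the nicotine extract had a high Psma4 in replicate 6 (11.45, next 11.25) and a low Psmb9 in replicate 5 (4.265, next 5.076), and the nicotine-free extract had a low Psmc3ip in replicate 2 (5.326, next 6.38) and a low Psmd9 in replicate 6 (7.346, next 7.787).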

How the results depend on the processing

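The counts of proteasome genes called between cell types stayed within 1.5 times the reported ones under every alternative run (no filter or a 50th percentile filter, the mean of a gene's features, cyclic loess, median centring, array weights, a trended robust fit, a fit on the compared groups alone, and arrays left out): 22 to 29 at control, 19 to 26 with the nicotine-free extract and 16 to 27 with the nicotine extract, of which 20 to 28, 18 to 25 and 15 to 26 were higher in AECII. Leaving out 1 array gave 22 to 26, 20 to 24 and 21 to 25. The count of 16 came from PASMC arrays with Sftpc at or below 6, a choice made, like that of leaving out the 3 arrays low in fibroblast markers, after seeing the data. No extract comparison or difference of responses called a proteasome gene under any alternative. With replicate number as a block the cell-type counts were 29, 24 and 24 and the others 0; same-numbered arrays correlated from -0.40 to 0.62 in their deviations, so the numbers are not taken to pair the arrays. Of 3458 values of named genes under alternatives, 3441 kept their side of the threshold, 11 lost it, 6 gained it and none that was called changed sign; 189 values not called did. The calls lost were those of Psmb9 at control (4 alternatives) and with the nicotine-free extract, Psmb8 with the nicotine extract, Psmb1 at control, Psme1 at control and with the nicotine extract, and Psmb5 and Psmb7 with the nicotine extract. Where nothing else is said, the cause was not tested. Signal near background limits Psmb9, Psma8, Psmb11, Tap1 and Erap1. It also limits Psmb8 on its lowest PASMC arrays, at 3.16 at control, 3.76 with the nicotine-free and 3.46 with the nicotine extract.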

Other observations

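Among the 216 relations of Psmb8 examined, 15 had an adjusted exact Pearson p under 0.05, some of them with genes outside the proteasome. Groups may share cultures, so the 15 are not to be read as independent results. In PASMC control arrays Psmb8 followed Tap2, a peptide transporter subunit whose mean was not called different between the cell types, with r = 0.894 (adjusted exact p = 0.00536), rho = 1 (adjusted exact p = 0.00536) and r = 0.994 without the 2 farthest arrays. For Tap2 with the nicotine-free and nicotine extracts, r was 0.874 and 0.920 (adjusted exact p = 0.0530 and 0.0304), rho was 0.881 in both (adjusted exact p = 0.0978) and r without the 2 farthest arrays was 0.714 and 0.804. The loading factor Tapbp gave r = 0.948 with the nicotine-free extract (adjusted exact p = 0.0250), with rho = 1 (adjusted exact p = 0.00536), and 0.901 without the 2 farthest arrays. In AECII control arrays the heavy chain H2-K1 gave r = 0.890 (adjusted exact p = 0.0471), rho = 0.738 (adjusted exact p = 0.215) and r = 0.599 without the 2 farthest arrays.

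The trypsin-like subunit Psmb7 ran opposite to Psmb8 in PASMC with the nicotine extract, with r = -0.912 (adjusted exact p = 0.0368), rho = -0.857 (adjusted exact p = 0.105) and r = -0.738 without the 2 farthest arrays. At control and with the nicotine-free extract r was -0.703 and -0.596 (adjusted exact p = 0.207 and 0.294), rho -0.667 and -0.548 (adjusted exact p = 0.280 and 0.434), and r without the 2 farthest arrays -0.443 and -0.447.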
